A study of Mus musculus with 2 samples.

Results

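The genes described here encode lysosomal hydrolases, lysosomal membrane proteins, the vacuolar proton pump (V-ATPase) and the transcription factors known to drive them. They are 47 genes named on a list of lysosomal functions, matched by symbol in the deposited count files of mouse bone marrow-derived dendritic cells. All 47 were found among 23238 symbols, and all 47 had 50 or more reads in at least 1 library, as did 10469 symbols in all. Of the 47, Manba and Sgsh passed that floor through the control library alone. The members were listed by function, but the list was chosen with earlier results of these data known.

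The study sequenced 1 library from cells treated with UNE-C1 and 1 from control cells. UNE-C1, a fragment of the enzyme cysteinyl-tRNA synthetase that is known to bind Toll-like receptors, was used at 100 nM for 24 h. The labels do not state a vehicle for the control culture, nor whether marrow was pooled from several animals. Both groups were cells of female C57BL/6 mice aged 7 weeks, cultured from bone marrow with 20 ng/ml GM-CSF, topped up on day 3, and collected on day 6 as the non-adherent and loosely attached fraction. The UNE-C1 library held 15975821 reads and the control library 14857198 reads, made with a QuantSeq kit, which reads transcripts near their 3' ends, so that a count does not grow with transcript length.

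Neither group was replicated, so there is no test, and every difference below is one between 2 libraries. Levels are CPM (counts scaled to library size) with library sizes scaled by TMM, a method that centres most genes on no change. Ratios are CPM in UNE-C1 over CPM in control, with an exact 95% interval that covers counting error only. A gene was called 2-fold higher or lower by its log2 fold change, log2((CPM + 1)/(CPM + 1)), which holds back genes with few reads. The scaling matters for small differences: with total read counts in place of TMM the median of all genes moved by -0.32 on the log2 scale, and 15 of the 47 members that were above 0 were then below it. In bulk RNA, fewer cells of a type and less RNA per cell cannot be told apart.

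Lysosomes break down proteins, lipids, glycans and glycosaminoglycans with hydrolases that work at acid pH, and the V-ATPase supplies that acidity by pumping protons at the cost of ATP. In the pump, the cytosolic V1 sector hydrolyses ATP and the membrane V0 sector conducts protons. In dendritic cells lysosomal acidity and proteolysis are known to be tuned during maturation, since too rapid breakdown destroys antigen before it is loaded on MHC class II. TFEB, TFE3 and MITF, related basic helix-loop-helix factors of the MiT family, are known to bind a short promoter sequence shared by many lysosomal genes.

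The 47 genes did not move as a block between the UNE-C1 and control libraries. At the 2-fold threshold 2 of them were higher in the UNE-C1 library (4.26%, against 9.31% of all genes compared) and 4 were lower (8.51%, against 9.42% of all genes). The higher ones were Npc2 and Gla, and the lower ones were Gusb, Manba, Atp6v0a1 and Atp6v0d2. At 1.5-fold, 4 members were higher (8.51%, against 18.2% of all genes) and 11 were lower (23.4%, against 19.3%). The median log2 fold change was 0.08 over the members and -0.00 over all genes, with quartiles of -0.41 and 0.29 for the members and of -0.44 and 0.41 for all genes. With total counts the 2-fold calls among members were 1 higher and 7 lower, in place of 2 and 4, while 6.28% of all genes were then higher and 16.2% lower. With TMM and a pseudocount of 1 CPM the share of members 2-fold higher was thus below that of all genes, and the share 2-fold lower was close to it. What follows describes single genes and subunits rather than a shift of the list.

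**Figure D1:**
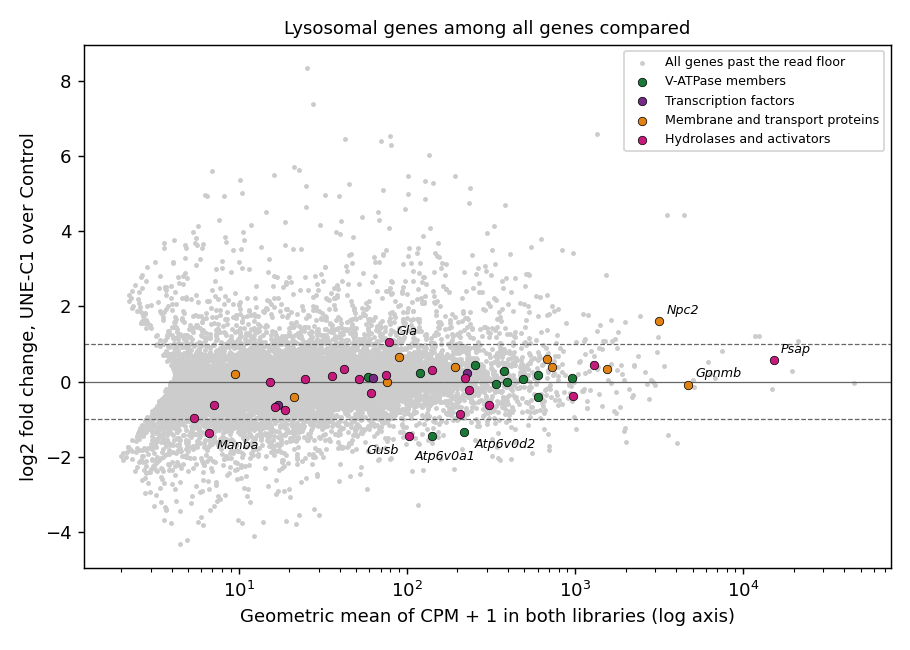
Log2 fold change, UNE-C1 over control (y axis), against the geometric mean level of both libraries in CPM + 1 (x axis, log) for all 10469 genes compared (grey) and the 47 lysosomal genes (coloured by role). Dashed lines mark 2-fold; 2 lysosomal genes lie above the upper line, 4 below the lower one, and Psap is the most abundant of them.

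Together the members made up 3.65% of all reads in the UNE-C1 library and 3.49% in the control library. In scaled levels their sum was 41118 CPM in the UNE-C1 library and 31024 CPM in the control library, a ratio of 1.33. The TMM library sizes alone put the summed level of all genes at a ratio of 1.27, so the ratio of the members was close to that of all genes. Most of the gap in CPM came from 2 abundant genes: without Psap and Npc2 the sum was 17095 CPM in the UNE-C1 library and 16783 CPM in the control library. That ratio of 1.02 is below the 1.27 of all genes, and these other members made up 1.52% of reads in the UNE-C1 library and 1.89% in the control library.

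**Figure D2:**
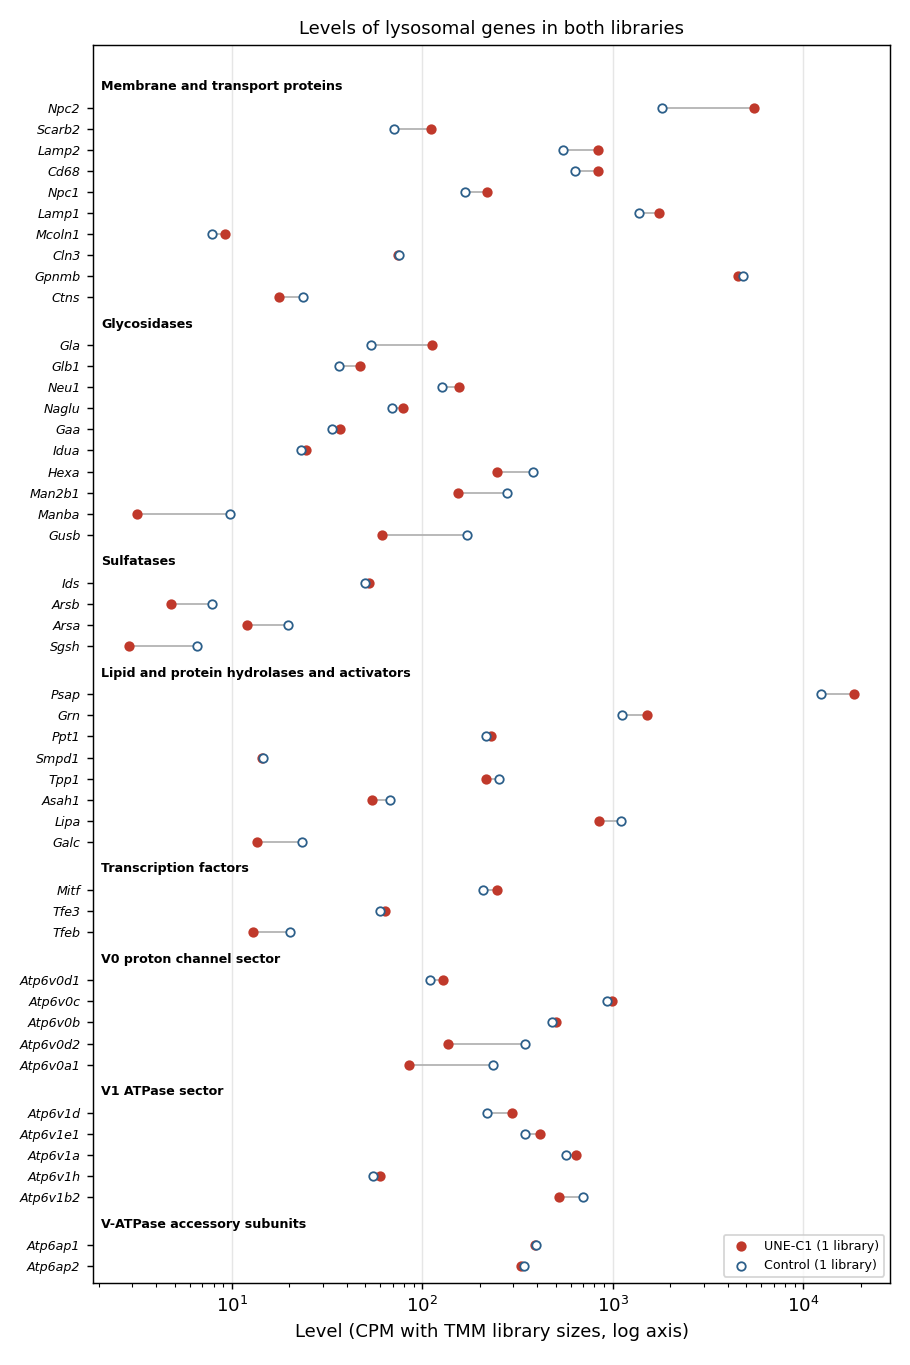
Level of each lysosomal gene in CPM (x axis, log) in the UNE-C1 library (filled) and the control library (open), grouped by role and ordered by fold change within a role. The levels span from under 10 CPM for Sgsh and Manba to 18512 CPM for Psap in the UNE-C1 library.

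Among the lysosomal membrane and transport proteins, 7 of 10 were above 0, against 5193 of the 10469 genes compared, with a median log2 fold change of 0.37. Of these 10, 1 was 2-fold higher, Npc2, against 9.31% of all genes. Npc2, the soluble protein that binds cholesterol inside the lysosome and hands it to Npc1, had 78164 reads in the UNE-C1 library and 30345 in the control library. Its level was 5510.5 CPM in the UNE-C1 library and 1813 CPM in the control library (ratio 3.04, interval 3.00 to 3.08), which placed it 15th among all genes with UNE-C1 and 40th in the control. Npc2 lies at chr12:84754562-84773152 on the minus strand of GRCm38, the assembly also called mm10. It had the highest ratio of all members, an order that a change of scaling cannot alter. Npc1, the membrane partner that moves cholesterol out of the lysosome, stood at 219.5 CPM in the UNE-C1 library and 168 CPM in the control library (ratio 1.31, interval 1.24 to 1.38). The log2 fold changes of this pair of cholesterol carriers were thus 1.60 for Npc2 and 0.39 for Npc1.

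The LAMP-family glycoproteins that line the lysosomal membrane and Scarb2 were all somewhat higher, none by 2-fold. Lamp2, a structural glycoprotein that also serves in autophagy, was at 834 CPM in the UNE-C1 library and 550.3 CPM in the control library (ratio 1.52, interval 1.47 to 1.56). Lamp1, its close relative, was at 1750.4 and 1375 CPM in the UNE-C1 and control libraries (ratio 1.27, 1.25 to 1.30). Cd68 (macrosialin), the LAMP-family protein of macrophages and dendritic cells, was at 840.1 and 636 CPM in the UNE-C1 and control libraries (ratio 1.32, 1.29 to 1.36). Scarb2 (LIMP-2), the receptor that carries glucocerebrosidase to lysosomes, had 1579 reads in the UNE-C1 library and 1184 in the control library (ratio 1.57, 1.46 to 1.70). These 4 stayed above 0 with total counts, although Lamp1 then had a log2 fold change of only 0.005.

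Gpnmb, a glycoprotein of endosomes and lysosomes known as a target of MITF, was the second most abundant member in the control library. It had 64548 reads in the UNE-C1 library and 80588 in the control library, levels of 4551 and 4816 CPM (ratio 0.945, interval 0.935 to 0.955). The remaining membrane proteins were much less abundant, and none passed 1.5-fold. Ctns, the exporter of cystine, had 250 reads in the UNE-C1 library and 394 in the control library (ratio 0.749, 0.636 to 0.879). Mcoln1, the calcium channel TRPML1, had 130 and 132 reads in the UNE-C1 and control libraries, and its interval of 0.905 to 1.49 included 1. Cln3, the membrane protein mutated in juvenile Batten disease, had 1059 and 1256 reads in the UNE-C1 and control libraries (ratio 0.995, 0.916 to 1.08).

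The glycosidases, which remove single sugars from glycans and glycolipids, went in both directions. Of 10, 1 was 2-fold higher and 2 were 2-fold lower, against 9.31% and 9.42% of all genes compared. The other members ran from -0.86 to 0.35. Gla, alpha-galactosidase A, which clears globotriaosylceramide and is deficient in Fabry disease, had 1595 reads in the UNE-C1 library and 895 in the control library. Its level was 112 CPM in the UNE-C1 library and 53.5 CPM in the control library (ratio 2.10, interval 1.94 to 2.28). This call sits close to the threshold: the log2 fold change was 1.06, and it was 0.97 with upper-quartile scaling and 0.72 with total counts. Gusb, beta-glucuronidase, which acts on glycosaminoglycans, had 872 reads in the UNE-C1 library and 2863 in the control library, or 61.5 and 171 CPM (ratio 0.359, 0.333 to 0.388). Gusb (chr5:129989011-130003049, minus strand) had a log2 fold change of -1.46. Manba, beta-mannosidase, had only 45 reads in the UNE-C1 library and 163 in the control library (ratio 0.326, 0.229 to 0.456), and its call was lost with a pseudocount of 5 CPM.

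The lysosomal alpha-mannosidase Man2b1 went the same way as Manba but stayed short of 2-fold. It had 2168 reads in the UNE-C1 library and 4645 in the control library (ratio 0.551, interval 0.523 to 0.580). Hexa, the alpha subunit of beta-hexosaminidase, which degrades the ganglioside GM2, was at 247 CPM in the UNE-C1 library and 379 CPM in the control library (ratio 0.653, 0.626 to 0.680).

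The other glycosidases lay between ratios of 1.06 and 1.28. They were Glb1, beta-galactosidase (1.28, interval 1.15 to 1.43), Neu1, the lysosomal sialidase (1.24, 1.17 to 1.32), Naglu, which acts on heparan sulphate (1.14, 1.05 to 1.24), Gaa, the acid alpha-glucosidase of glycogen breakdown (1.10, 0.978 to 1.25), and Idua, alpha-L-iduronidase (1.06, 0.912 to 1.23). Of these 5, Glb1 alone stayed above 0 with total counts.

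Of the sulphatases, which remove sulphate groups from glycosaminoglycans and sulphated lipids, 3 of 4 were at least 1.5-fold lower in the UNE-C1 library, against 19.3% of all genes, and none passed 2-fold. All 3 calls were lost with a pseudocount of 5 CPM (log2 fold changes of -0.55 for Sgsh, -0.54 for Arsa and -0.40 for Arsb), and Sgsh and Arsb are below a floor of 200 reads. Sgsh, the heparan sulphamidase, had 41 reads in the UNE-C1 library and 110 in the control library (ratio 0.440, interval 0.299 to 0.635). Arsa, which desulphates sulphatide, had 171 and 331 reads in the UNE-C1 and control libraries (ratio 0.609, 0.504 to 0.735). Arsb, which acts on dermatan and chondroitin sulphate, had 68 and 132 reads in the UNE-C1 and control libraries (ratio 0.608, 0.447 to 0.820). Read numbers this low leave wide intervals, and Sgsh was short of 2-fold only because of the pseudocount: its log2 fold change was -0.96. Ids, the iduronate sulphatase, was the exception, with 742 reads in the UNE-C1 library and 833 in the control library (ratio 1.05, 0.951 to 1.16).

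The hydrolases of lipids and proteins and their activators included the most abundant member and passed 2-fold in no case. Psap encodes prosaposin, the precursor of the saposins that present sphingolipids to their hydrolases. It had 262587 reads in the UNE-C1 library and 207956 in the control library, 1.64% and 1.40% of all reads, and ranked 6th among all genes with UNE-C1 and 5th in the control. Its level was 18512 CPM in the UNE-C1 library and 12428 CPM in the control library (ratio 1.49, interval 1.481 to 1.498). Grn, progranulin, a secreted and lysosomal glycoprotein that binds prosaposin, was at 1511 and 1120.0 CPM in the UNE-C1 and control libraries (ratio 1.35, 1.32 to 1.38). Both stayed above 0 with total counts.

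The enzymes that saposins serve did not follow Psap. Galc, galactosylceramidase, had 191 reads in the UNE-C1 library and 391 in the control library (ratio 0.576, interval 0.482 to 0.687). Asah1, acid ceramidase, had 767 and 1126 reads in the UNE-C1 and control libraries (ratio 0.804, 0.732 to 0.882), while Smpd1, acid sphingomyelinase, had 204 and 243 (ratio 0.990, 0.818 to 1.198). Lipa, the acid lipase that frees cholesterol from its esters ahead of Npc2, was at 844 CPM in the UNE-C1 library and 1109 CPM in the control library (ratio 0.761, 0.744 to 0.779). Of the enzymes that act on proteins, Tpp1, a tripeptidyl peptidase, had a ratio of 0.852 (0.813 to 0.893) and Ppt1, which removes palmitate from proteins, one of 1.06 (1.01 to 1.11). Over all 22 hydrolases and activators the median log2 fold change was -0.12, with 10 above 0 and 12 below.

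**Figure D3:**
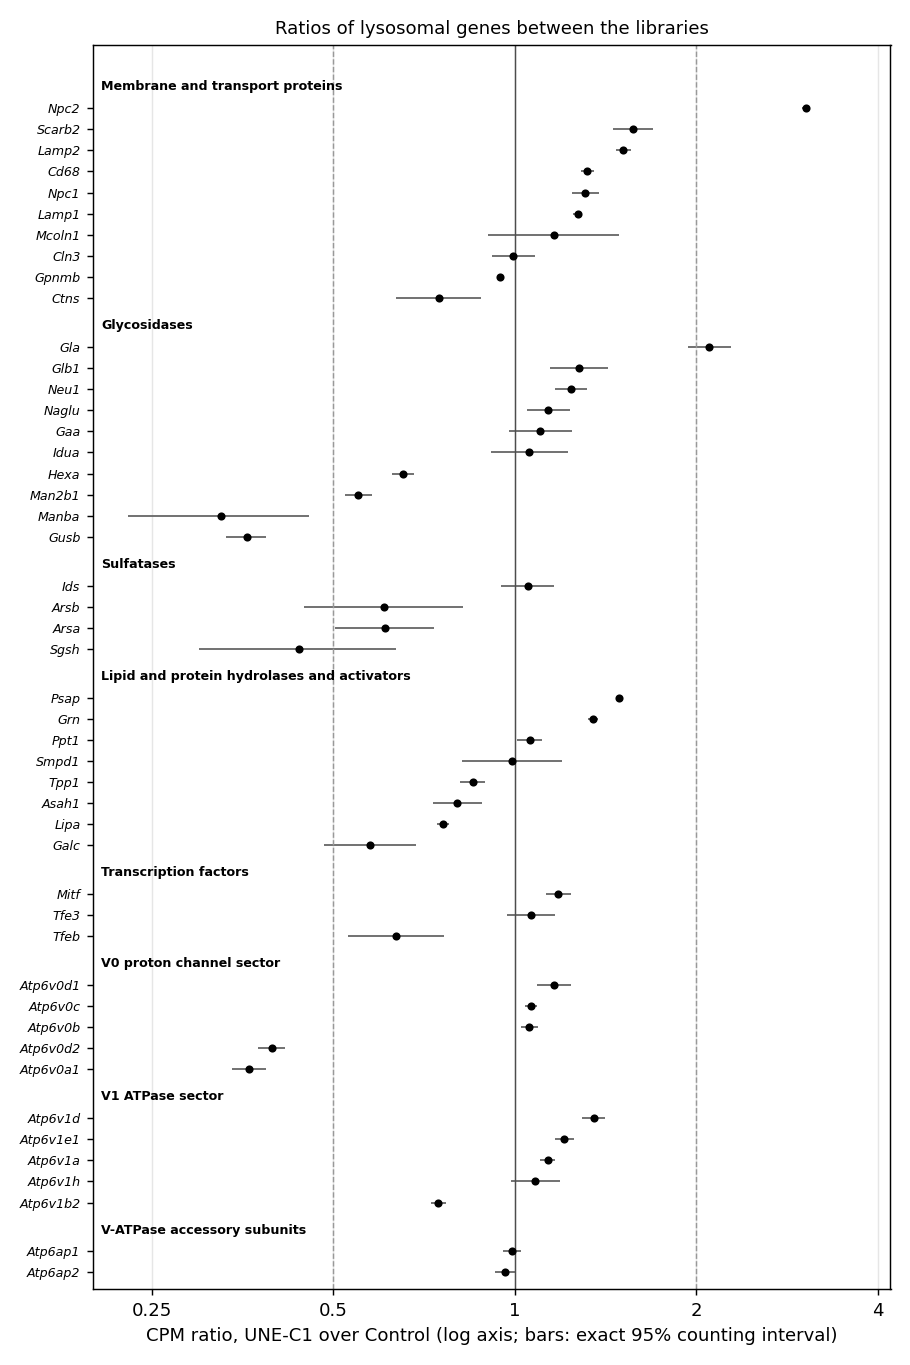
CPM ratio of each lysosomal gene, UNE-C1 over control (x axis, log), with exact 95% counting intervals as bars and dashed lines at 2-fold in each direction. Npc2 at 3.04 lies farthest to the right, and Manba, Gusb, Atp6v0a1 and Atp6v0d2 lie left of the lower line together with Sgsh, whose log2 fold change of -0.96 did not pass.

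In the V-ATPase, 2 of the 12 measured member subunits were 2-fold lower in the UNE-C1 library, against 9.42% of all genes compared. The other 10 ran from -0.42 to 0.43. Both lower ones belong to the V0 sector and are genes with sister isoforms. Atp6v0a1, the a1 form of the large membrane subunit through which protons pass (chr11:101009452-101063719, plus strand), had 1202 reads in the UNE-C1 library and 3908 in the control library. Its level was 84.7 CPM in the UNE-C1 library and 234 CPM in the control library (ratio 0.363, interval 0.340 to 0.387). Atp6v0d2, an isoform of the d subunit that joins the rotor to the membrane ring and is known from mouse osteoclasts and macrophages (chr4:19876841-19922605, minus strand), had 1930 reads in the UNE-C1 library and 5757 in the control library. Its level was 136 CPM in the UNE-C1 library and 344 CPM in the control library (ratio 0.395, 0.375 to 0.416).

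Their sister genes were close to the median gene, so the make-up of reads within each subunit differed between the libraries. Such a share within a library does not depend on the scaling. Atp6v0d1, the ubiquitous d form, had 1809 reads in the UNE-C1 library and 1836 in the control library (ratio 1.16, interval 1.09 to 1.24). Atp6v0d2 took 51.6% of the d subunit reads in the UNE-C1 library (interval 50.002 to 53.2) and 75.8% in the control library (74.8 to 76.8). Atp6v0a1 took 17.9% of the a subunit reads in the UNE-C1 library (17.0 to 18.8) and 41.3% in the control library (40.3 to 42.3). Tcirg1, the a3 form known from lysosomes and from osteoclasts and not a member, had 4544 reads in the UNE-C1 library and 4591 in the control library and took 67.6% (66.4 to 68.7) and 48.6% (47.6 to 49.6) of the a subunit reads in the UNE-C1 and control libraries. Atp6v0a2, also not a member, took 14.5% in the UNE-C1 library and 10.1% in the control library, and Atp6v0a4 had no reads in either library, which allows at most 0.211 CPM in the UNE-C1 library and 0.179 CPM in the control library. Summed over its isoforms, the d subunit had 3739 reads in the UNE-C1 library and 7593 in the control library (ratio 0.581, 0.558 to 0.604), and the a subunit 6724 and 9453 (ratio 0.839, 0.813 to 0.866).

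**Figure D4:**
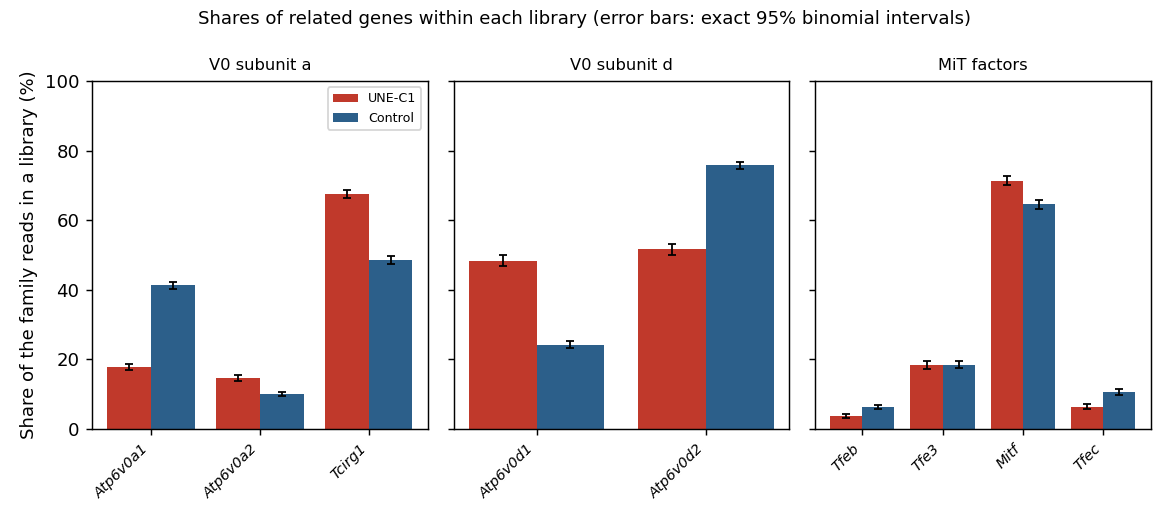
Share of each gene in the reads of its family (y axis, percent) in the UNE-C1 library (left bars) and the control library (right bars), with exact 95% binomial intervals as error bars, for the V0 subunits a and d and the MiT factors. Atp6v0a1 and Atp6v0d2 take smaller shares in the UNE-C1 library, and Tcirg1, Atp6v0d1 and Mitf larger ones.

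The remaining V0 members encode the proteolipids of the rotating ring. Atp6v0c was at 986 CPM in the UNE-C1 library and 926 CPM in the control library (ratio 1.06, interval 1.04 to 1.09), and Atp6v0b at 504 and 477 CPM in the UNE-C1 and control libraries (ratio 1.06, 1.02 to 1.09). The Atp6v0c value is uncertain, because the symbol of its pseudogene Atp6v0c-ps2 carried nearly the same counts, 14016 reads in the UNE-C1 library and 15539 in the control library, beside 13985 and 15498 on Atp6v0c. These differ by only 31 and 41 reads. Whether the same reads were counted on both symbols cannot be read from the files.

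In the V1 sector no member passed 1.5-fold. Atp6v1d, part of the central stalk, was highest by ratio, with 4168 reads in the UNE-C1 library and 3635 in the control library (1.35, interval 1.29 to 1.41). Atp6v1b2, the B subunit of the catalytic head, was lowest, with 7351 reads in the UNE-C1 library and 11603 in the control library (0.747, 0.726 to 0.770). Its partner in the head, the ATP-hydrolysing subunit Atp6v1a, was at 642 CPM in the UNE-C1 library and 566 CPM in the control library (1.14, 1.10 to 1.17). These subunits of one head thus lay on either side of 1 with separate intervals, although Atp6v1a was below 1 with total counts. Atp6v1e1, of the peripheral stalk, had a ratio of 1.21 (1.16 to 1.25) and Atp6v1h, a regulatory subunit, one of 1.08 (0.985 to 1.19). The accessory subunits Atp6ap1 and Atp6ap2, the second also known as the prorenin receptor, had ratios of 0.990 (0.955 to 1.03) and 0.963 (0.926 to 1.001), both with intervals that included 1.

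Of the transcription factors, Mitf was the most abundant and Tfeb the least, and none passed 2-fold. Tfeb had 183 reads in the UNE-C1 library and 339 in the control library, or 12.9 and 20.3 CPM (ratio 0.637, interval 0.529 to 0.764). Tfe3 had 905 and 1004 reads in the UNE-C1 and control libraries (ratio 1.06, 0.971 to 1.16). Mitf had 3501 and 3495 reads in the UNE-C1 and control libraries (ratio 1.18, 1.13 to 1.24), a ratio that turned below 1 with total counts. Mitf took 71.4% of the reads on the 4 genes of this family, Tfec included, in the UNE-C1 library (70.1 to 72.6) and 64.5% in the control library (63.3 to 65.8), while the share of Tfeb was 3.73% (3.22 to 4.30) in the UNE-C1 library and 6.26% (5.63 to 6.94) in the control library.

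Promoter sequences were looked up because these factors are known to bind a CACGTG core, preceded by a T in the element common to lysosomal genes. RefSeq promoters (build GRCm38.p6, 250 bases before to 50 after each start) were found for 42 of the 47 members. TCACGTG, read on both strands, was present in 12 of those 42 genes (28.6%), against 7.20% of the 8057 genes with a promoter among those compared and 4.29% of all 27025 genes in the table. The shorter CACGTG, which every TCACGTG contains, was present in the same number of members, 12, and in 12.1% of the genes compared. A match is a description of letters and not a measured binding site. The 12 genes were Gla, Glb1, Lamp1, Atp6v0d1, Mcoln1, Naglu, Atp6v1a, Gaa, Atp6v0b, Cln3, Arsa and Sgsh.

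The promoter of Gla is printed whole, as the motif-bearing member that passed 2-fold; it spans chrX:134600956-134601255 on the minus strand and holds the motif at 2 places. Capitals mark TCACGTG or its reverse complement, and TCACGTGA where both overlap.
Gla: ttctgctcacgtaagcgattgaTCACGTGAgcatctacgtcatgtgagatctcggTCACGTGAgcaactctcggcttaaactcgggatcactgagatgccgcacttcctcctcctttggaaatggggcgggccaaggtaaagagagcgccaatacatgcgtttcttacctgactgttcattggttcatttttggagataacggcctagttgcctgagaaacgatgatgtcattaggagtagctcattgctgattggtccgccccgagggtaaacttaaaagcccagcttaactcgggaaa

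Shorter windows around the motif show that members with unlike ratios carry the same letters. They lie at chr8:13159083-13159122 (plus strand) for Lamp1, chr8:105566045-105566084 (minus) for Atp6v0d1, chr16:44139368-44139407 (minus) for Atp6v1a, chr15:89477418-89477457 (minus) for Arsa and chr11:119355517-119355556 (minus) for Sgsh.
Lamp1: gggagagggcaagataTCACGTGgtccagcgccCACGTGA
Atp6v0d1: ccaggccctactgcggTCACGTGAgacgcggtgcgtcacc
Atp6v1a: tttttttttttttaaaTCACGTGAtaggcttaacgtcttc
Arsa: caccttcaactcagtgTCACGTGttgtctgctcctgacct
Sgsh: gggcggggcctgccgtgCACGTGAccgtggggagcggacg

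The 12 genes with the motif had log2 fold changes from -0.96 for Sgsh to 1.06 for Gla, with a median of 0.18, and 9 of them were above 0. The 30 members with a promoter in the table and no TCACGTG had a median of 0.03 and ranged from -1.46 to 1.60, with 15 above 0. The range of the genes with the motif lay inside that of the genes without it. Npc2, Gusb and Atp6v0a1 were in the group without the motif, and no promoter sequence was used for Atp6v0d2.

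Other genes of the same compartment, taken from lists of lysosomal functions, were likewise mixed. The counts below stand beside 9.31% of all genes compared that were 2-fold higher and 9.42% that were 2-fold lower. Of 7 other V-ATPase subunits past the read floor none passed 2-fold, and Atp6v0e, a small V0 subunit, was highest with 10018 reads in the UNE-C1 library and 7684 in the control library (ratio 1.54, interval 1.49 to 1.58). Of 23 other hydrolases and activators, 1 was 2-fold higher, the tartrate-resistant phosphatase Acp5 (226 CPM in the UNE-C1 library and 94.8 CPM in the control library), and 1 was lower, the lysosomal nuclease Dnase2a (25.5 and 81.8 CPM). Hgsnat, an enzyme of heparan sulphate breakdown, stood just inside the threshold at -0.97 on the log2 scale. Among 22 further membrane proteins, 2 were higher, the TRPML2 channel gene Mcoln2 (1.56) and the peptide and histidine transporter Slc15a3 (1.38), and 2 were lower, the transporter Abca2 (-1.53) and the two-pore channel gene Tpcn1 (-1.52).

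Genes that sort enzymes to lysosomes or act upstream of them included few past 2-fold, beside 9.31% of all genes higher and 9.42% lower. Of 9 mannose 6-phosphate sorting genes, 1 was lower, the sorting receptor Sort1, with 302 reads in the UNE-C1 library and 1252 in the control library (ratio 0.285, interval 0.2501 to 0.323). Of 19 genes of TFEB control and the Ragulator complex, 1 was higher, Fnip2, a partner of folliculin (log2 fold change 1.09). Of 23 autophagy genes, 19 were above 0, against 5193 of the 10469 genes compared. Of the 23, 2 were 2-fold higher, the receptors Sqstm1 and Tax1bp1. Sqstm1, which encodes p62, was at 1545 CPM in the UNE-C1 library and 402 CPM in the control library (ratio 3.84, 3.74 to 3.95). The median of the autophagy list was 0.31, about the size of the shift that total counts bring.

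**Figure D5:**
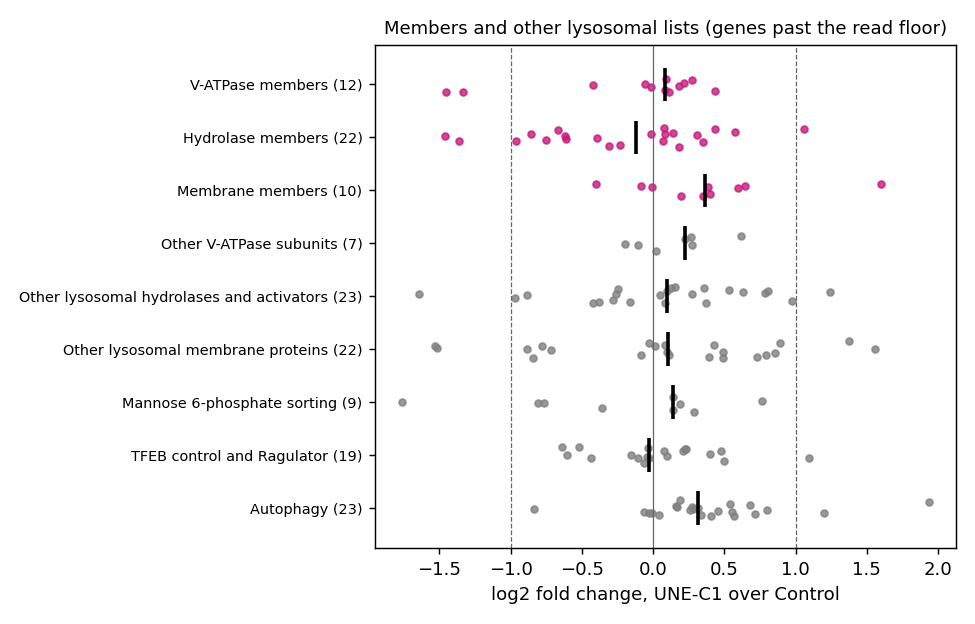
Log2 fold change, UNE-C1 over control (x axis), of each gene past the read floor in the member groups (coloured) and the other lysosomal lists (grey), with the number of genes in brackets, black bars at the medians and dashed lines at 2-fold. Points spread to both sides of 0 in every list, and medians lie between -0.12 for the hydrolase members and 0.37 for the membrane members.

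Markers of the cell types such a culture can hold also differed between the libraries. The counts of 2-fold calls below stand beside 9.31% of all genes compared that were higher and 9.42% that were lower. Mmp9, with 1198 reads in the UNE-C1 library and 7150 in the control library, was counted on both the osteoclast and the neutrophil list. Of 8 measured osteoclast markers, 4 were 2-fold lower and 2 higher in the UNE-C1 library, with a summed level over the list of 690.0 CPM in the UNE-C1 library and 1325 CPM in the control library and Oscar at 0. Dcstamp, which acts in cell fusion, had 2299 reads in the UNE-C1 library and 10690 in the control library, and Ocstamp had 9 and 373. These differences had the same direction as those of Atp6v0d2 and Atp6v0a1. The 2 higher markers on the same list, Acp5 and Ctsk, went the other way (ratios 2.38 and 2.12). Tnfrsf11a and Nfatc1 stayed inside 2-fold (ratios 1.39 and 0.956). On the list for monocytes and macrophages, 7 of 14 measured markers were lower and 3 higher (summed level 5911 CPM in the UNE-C1 library and 8553 CPM in the control library), and of 14 neutrophil markers 12 were lower and 1 higher (3767 CPM in the UNE-C1 library and 8561 CPM in the control library), with no measured marker of either list at 0. Of 7 measured mast cell, basophil and eosinophil markers, 3 were lower and 0 higher (804 CPM in the UNE-C1 library and 1222 CPM in the control library), with Mcpt4 at 0. Prg2, the most abundant of them, had 9574 and 17206 reads in the UNE-C1 and control libraries. Of 3 measured plasmacytoid dendritic cell markers, 1 was higher, Bst2 (ratio 7.85), and 0 lower. The part of these cell types in the values of the lysosomal genes was not tested. Of 14 conventional dendritic cell markers, 2 were higher, Xcr1 (ratio 4.13) and Irf8 (2.50), and 2 lower, Clec9a (0.229) and Itgax (0.325). Xcr1 had 189 reads in the UNE-C1 library and 54 in the control library, and Clec9a had 34 and 175. The MHC class II gene H2-Eb1 was at 2867 CPM in the UNE-C1 library and 3077 CPM in the control library, and Itgax (CD11c) at 246 and 759 CPM, while Cd209a had no reads. B cell markers summed to 0.352 CPM in the UNE-C1 library and 2.87 CPM in the control library, and T and natural killer cell markers to 1.62 and 6.10 CPM, with Pax5, Cd3e and Gzma at 0.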

How the data were processed

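Read counts per gene symbol were deposited by the authors without normalization, as judged from the whole-number values; each file carries 1 count column. Per the submitters' processing notes, Bowtie2, edgeR and build mm10 were used, with no roles given; the counting tool, annotation, strand setting and treatment of multiply mapped reads are not stated there. Per the labels' protocols, a QuantSeq kit was used on 500 ng of total RNA. No molecular identifiers are named, so PCR copies count as reads.

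Each file held 23282 entries; 35 symbols that occurred more than once, none of them a member, were summed. Counts were scaled to CPM with TMM library sizes (edgeR 4.0.16, R 4.3.3; factors 0.888 for UNE-C1 and 1.13 for control). Genes with 50 or more reads in either library were compared (3.52 CPM in UNE-C1, 2.99 CPM in control). Log2 fold changes used a pseudocount of 1 CPM. Ratios have exact conditional binomial, and shares exact Clopper-Pearson, 95% intervals (scipy 1.17.1); 0 reads were read as allowing up to 3. The procedure was tested on simulated data with 200 genes set to known folds. Scaling, pseudocount, floor and pseudogene handling were varied. Positions come from GENCODE M21 (GRCm38). Within the last 1000 bases of the gene, 8 members overlap a gene on the opposite strand (among them Lamp1, Sgsh and Grn) and 0 one on the same strand, so their counts are uncertain without a known strand setting. Promoters come from RefSeq (GRCm38.p6).

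The members and gene lists were chosen with earlier results of these data known. Every member is named; of other lists, up to 4 genes with the largest change, and of marker lists the most abundant genes and up to 3 with the largest change. Atp6v0a4, Oscar, Ctsk, Tnfrsf11a, Nfatc1, Irf8, Cd209a, Mcpt4, Pax5, Cd3e and Gzma were named outside that rule, after their values were seen. Some results are left out.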

Additional observations from a re-analysis of the deposited data

How the results depend on the processing

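No paired analysis was possible because each group had 1 library, and for the same reason no library could be left out. Of 8 alternatives, DESeq2 size factors, a pseudocount of 0.1 CPM, no read floor and adding pseudogene reads kept all 6 members called 2-fold. They left the counts of calls within 1.5 times, and a pseudocount of 0.1 CPM added Sgsh. Of these alternatives only the DESeq2 size factors could have lost a call. A smaller pseudocount only enlarges a fold, every member already passed the floor, and pseudogene reads changed Atp6v0c alone, which was not called. With total counts 1 member was 2-fold higher and 7 lower, with Gla lost and Man2b1, Sgsh and Galc gained; 2 were 1.5-fold higher. The medians were then -0.26 over all members, -0.26 over the V-ATPase members (-0.257 each) and -0.45 over the hydrolases, against -0.33 for all genes. With upper-quartile scaling 1 member was 2-fold higher (Gla lost), 5 were 2-fold lower (Sgsh gained) and 2 were 1.5-fold higher, and the medians were -0.0066 over all members and -0.0025 over the V-ATPase members. A pseudocount of 5 CPM left 7 members 1.5-fold lower and ended the call of Manba. A floor of 200 reads kept 43 members, without Manba, and turned the hydrolase median to 0.070. No member called 2-fold changed direction under any of the 8, but none could have. Pseudocounts and floors cannot turn a sign, the pseudogene reads touched no called member, and the scaling shifts were smaller than 2-fold. Depth limits Manba, Sgsh, Arsb and Mcoln1 most, with under 200 reads in each library.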

Other observations

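Below the read floor and chosen after its value was seen, Hyal1, a lysosomal hyaluronidase, had 45 reads in the UNE-C1 library and 4 in the control library, a ratio of 13.3 with an interval of 4.84 to 50.8. The dendritic cell LAMP gene Lamp3, also chosen after its value was seen, had 1 read in the UNE-C1 library and 2 in the control library. Of the V-ATPase isoforms known from other tissues, Atp6v0a4, Atp6v1b1, Atp6v1e2 and Atp6v1g3 had no reads in either library.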
